A study of Mus musculus with 9 samples.

Results

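The mitochondrial SLC25 carriers are a family of membrane transporters, described here across liver libraries of NSG mice. Members are the features with an Ensembl mouse identifier whose symbol is Slc25a followed by a number. There are 47 of them among 55414 Ensembl features and 61473 features in all. The livers came from 3 groups of 3 libraries. MDA-MB-231 EV livers followed tail vein injections of extracellular vesicles (EVs) from a human triple-negative breast cancer line over 5 weeks. MCF-10A EV livers followed EVs of a non-tumorigenic human breast epithelial line, given the same way, and PBS livers followed injections of phosphate-buffered saline. All mice were NSG, an immunodeficient strain, and the labels give their genotype as WT, with no age or sex used here. The labels number the libraries of a group without saying that each is a separate mouse, so the spread behind each p-value is that between libraries and may be technical.

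SLC25 carriers sit, with few exceptions, in the inner mitochondrial membrane and pass metabolites, nucleotides, cofactors and ions between the cytosol and the matrix. In liver they serve respiration (ADP, ATP and phosphate), the export of citrate for fatty acid and sterol synthesis, the malate-aspartate shuttle, the urea cycle, the entry of acylcarnitines for oxidation and the delivery of iron and glycine for heme. The study's title concerns cholesterol balance, and the citrate carrier stands at the start of that supply. Of the members, Slc25a17 is known as a peroxisomal carrier and Slc25a46 as a protein of the outer mitochondrial membrane, so the family name covers more than the inner membrane.

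Values are TPM as the authors deposited them, a transcript level scaled by transcript length and by the library's total. TPM keeps no read depth, so depth is unknown and intervals for counting error are not possible. Between 17403 and 20070 Ensembl features were above 0 per library, and 43 to 46 members. The MCF-10A EV libraries summed to between 934986 and 979351 TPM and the other 6 libraries to about 1000000 TPM. Ensembl features made up the whole of these sums in MCF-10A EV, to the nearest TPM, and 943034 to 987881 TPM in the other 6. Transcripts of the mitochondrial genome took 4.96% to 11.7% of TPM in MDA-MB-231 EV libraries, 5.63% to 9.36% in MCF-10A EV libraries and 8.10% to 26.3% in PBS libraries, with the highest share in PBS 1. PBS 1 and MDA-MB-231 EV 3 stand apart from the rest of their groups, as given below for the carriers. All 8 hepatocyte markers looked up had a mean of at least 1 TPM and together held 38662 to 103725 TPM in MDA-MB-231 EV, 44919 to 66305 TPM in MCF-10A EV and 38709 to 93560 TPM in PBS livers. The 4 male germ cell markers (Prm1, Prm2, Tnp1, Odf1) were listed at 0 in every library, and of the 5 pancreatic acinar markers Cela1 was at 14.3 to 54.7 TPM. The other 4 were each at most at 0.66 TPM except in MDA-MB-231 EV 3, with 8.30 TPM of Prss2, 3.77 TPM of Amy2a5, 3.76 TPM of Pnlip and 1.69 TPM of Cpa1. In bulk tissue, fewer cells of a type and less RNA per cell cannot be told apart.

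The carrier transcripts together held 2289, 1720 and 1414 TPM in MDA-MB-231 EV livers 1 to 3, against 1632, 1129 and 1138 TPM in MCF-10A EV livers and 1113, 1359 and 1196 TPM in PBS livers. The MDA-MB-231 EV range lay above that of PBS and overlapped that of MCF-10A EV, though in each of the 3 pairs of the same replicate number MDA-MB-231 EV was higher than MCF-10A EV. As a share of TPM without mitochondrially encoded genes the carriers held 0.245%, 0.181% and 0.160% in MDA-MB-231 EV, against 0.177%, 0.129% and 0.134% in MCF-10A EV and 0.151%, 0.155% and 0.130% in PBS livers. On this scale too the MDA-MB-231 EV range lay above that of PBS, and MDA-MB-231 EV was higher than MCF-10A EV in all 3 pairs. The total behind the shares held Ensembl features alone in MCF-10A EV and further features in the other groups, so the scale is not strictly the same. The members with the highest means, Slc25a5, Slc25a3, Slc25a39, Slc25a47 and Slc25a1, made up 43.4% to 61.2% of the summed level of the family. At the other end, 10 members had a mean under 1 TPM and entered no test across genes.

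**Figure D1:**
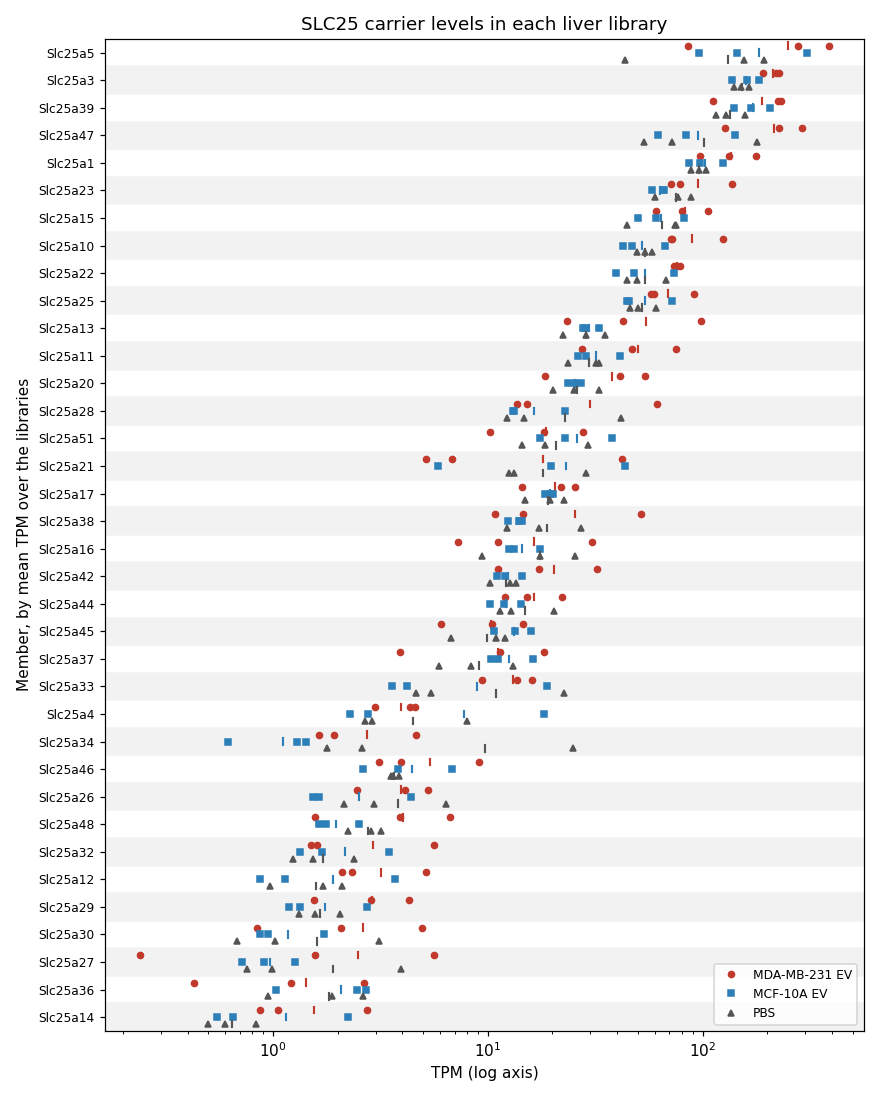
TPM (log axis) of 36 of the 37 members with a mean of at least 1 TPM, by mean level from top to bottom; each point is a library and each vertical tick a group mean. Levels span from 188 TPM for Slc25a5 to 1.12 TPM for Slc25a14, and the groups overlap for most members.

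Carriers of respiration came first in level. Slc25a5, the main ADP/ATP carrier of proliferating and many other cells, was at 388, 278 and 85.7 TPM in MDA-MB-231 EV livers 1 to 3, at 306, 145 and 96.5 TPM in MCF-10A EV livers and at 43.4, 194 and 156 TPM in PBS livers. Its 9 libraries differed up to 8.95-fold, with PBS 1 lowest and MDA-MB-231 EV 1 highest, and all groups overlapped. Slc25a4, the ADP/ATP carrier of heart and muscle, had a mean of 5.40 TPM, and Slc25a31, known from the testis, was at most at 0.09 TPM. MCF-10A EV 1 held 18.2 TPM of Slc25a4 and PBS 2 held 7.96 TPM, where the other 7 libraries held 2.28 to 4.56 TPM. The 6 muscle markers together held 0.16 TPM in MCF-10A EV 1 and 6.15 TPM in PBS 2, and more in MDA-MB-231 EV 3 (9.63 TPM) and PBS 1 (7.13 TPM), which were not high in Slc25a4. Erythroid markers, 7 genes with the globins, held 16025 TPM in MCF-10A EV 1 against 781 to 4172 TPM in the other 8 libraries, and their part in the Slc25a4 value was not tested. Slc25a3, the phosphate carrier that feeds ATP synthase, was at 228, 191 and 219 TPM in MDA-MB-231 EV livers, at 183, 137 and 160 TPM in MCF-10A EV livers and at 165, 150 and 140 TPM in PBS livers. All 3 MDA-MB-231 EV libraries lay above all 6 others, and its spread, a highest value 1.67 times the lowest, was the smallest of the tested members.

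Of the ATP-Mg and phosphate carriers, which set the adenine nucleotide pool of the matrix, Slc25a23 and Slc25a25 had means of 78.1 and 58.6 TPM. Slc25a24 and Slc25a41 of the same group lay below the filter, at 0.32 to 1.52 TPM and at 0 to 0.17 TPM. Slc25a23 was at 137, 71.5 and 78.8 TPM in MDA-MB-231 EV livers, against 58.0, 66.3 and 65.7 TPM in MCF-10A EV and 60.0, 76.8 and 88.8 TPM in PBS livers. Its MDA-MB-231 EV libraries lay above those of MCF-10A EV and overlapped those of PBS. Slc25a25 was at 59.7, 57.4 and 90.9 TPM in MDA-MB-231 EV livers, at 72.1, 44.3 and 45.7 TPM in MCF-10A EV livers and at 50.3, 60.8 and 46.1 TPM in PBS livers, with overlap throughout.

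Carriers of carboxylates followed. Slc25a1, the citrate carrier, was at 177, 133 and 97.3 TPM in MDA-MB-231 EV livers, at 125, 96.9 and 86.3 TPM in MCF-10A EV livers and at 88.1, 96.5 and 104 TPM in PBS livers, and MDA-MB-231 EV 3 lay within both other groups. Slc25a10, the dicarboxylate carrier for malate, succinate and phosphate, was at 125, 72.0 and 71.1 TPM in MDA-MB-231 EV livers, at 66.6, 46.9 and 42.7 TPM in MCF-10A EV livers and at 54.1, 49.3 and 58.4 TPM in PBS livers. All 3 MDA-MB-231 EV libraries exceeded all 6 others. Slc25a11, the oxoglutarate and malate exchanger of the malate-aspartate shuttle, was at 75.2, 47.1 and 27.5 TPM in MDA-MB-231 EV, 41.2, 28.5 and 26.4 TPM in MCF-10A EV and 23.6, 31.9 and 33.0 TPM in PBS livers. Slc25a21, the carrier of 2-oxoadipate and related acids, varied otherwise: 6.80, 5.15 and 42.3 TPM in MDA-MB-231 EV, 5.89, 19.8 and 43.4 TPM in MCF-10A EV and 28.6, 12.6 and 13.3 TPM in PBS livers. Within both EV groups replicate 3 was the highest, with a range of 8.43-fold over all libraries.

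Amino acid carriers were led by Slc25a15, the ornithine carrier of the urea cycle, with a mean of 70.6 TPM and a range of 44.5 to 107 TPM. The glutamate carrier Slc25a22 had a mean of 61.2 TPM and the aspartate-glutamate carrier Slc25a13 (citrin) one of 37.6 TPM. Their relatives Slc25a2, Slc25a18 and Slc25a12 were at means of 0.324, 0.273 and 2.23 TPM, so of each pair Slc25a15, Slc25a22 and Slc25a13 held the higher level in all 9 libraries. Slc25a22 was at 75.9, 73.3 and 78.5 TPM in MDA-MB-231 EV livers, at 73.7, 39.6 and 47.7 TPM in MCF-10A EV livers and at 49.7, 67.8 and 44.3 TPM in PBS livers. MDA-MB-231 EV lay above PBS without overlap and overlapped MCF-10A EV by MCF-10A EV 1. Slc25a13 was at 97.8, 42.4 and 23.5 TPM in MDA-MB-231 EV, 32.8, 27.6 and 28.5 TPM in MCF-10A EV and 22.3, 35.0 and 28.7 TPM in PBS livers, and 1 library, MDA-MB-231 EV 1, held by far the most. The branched-chain amino acid carrier Slc25a44 had a mean of 14.5 TPM and Slc25a29, a carrier of basic amino acids, one of 2.10 TPM.

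Slc25a20, which exchanges acylcarnitine for carnitine in fatty acid oxidation, was at 53.7, 41.0 and 18.5 TPM in MDA-MB-231 EV livers, at 23.7, 25.4 and 27.1 TPM in MCF-10A EV livers and at 20.0, 33.0 and 25.3 TPM in PBS livers. The lowest and the highest of all 9 libraries were both of MDA-MB-231 EV. Slc25a47, a carrier known for its enrichment in hepatocytes, was at 291, 227 and 128 TPM in MDA-MB-231 EV livers, at 141, 83.3 and 62.2 TPM in MCF-10A EV livers and at 72.1, 179 and 53.6 TPM in PBS livers. MDA-MB-231 EV 3 lay below MCF-10A EV 1 and PBS 2, so the groups overlapped. Slc25a39, a glutathione carrier, had a mean of 165 TPM, and its relative Slc25a40 was at 0.59 to 1.80 TPM, with a mean just below the filter at 0.990 TPM.

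Carriers of cofactors were lower and included Slc25a51 for NAD (21.8 TPM), the peroxisomal Slc25a17 (19.7 TPM), Slc25a16 (16.1 TPM), Slc25a42 for coenzyme A (15.0 TPM), Slc25a26 for S-adenosylmethionine (3.44 TPM) and Slc25a32 for folate and FAD (2.26 TPM), given as means over the libraries. No feature of the table is named Slc25a52. Iron carriers were at means of 23.1 TPM for Slc25a28 (mitoferrin 2, of most tissues) and 11.0 TPM for Slc25a37 (mitoferrin 1, of erythroid cells). Slc25a28 was at 15.2, 13.6 and 61.1 TPM in MDA-MB-231 EV, 13.2, 13.1 and 22.9 TPM in MCF-10A EV and 41.8, 14.8 and 12.3 TPM in PBS livers. Slc25a37 was at 18.2, 3.88 and 11.4 TPM in MDA-MB-231 EV, 11.2, 10.3 and 16.2 TPM in MCF-10A EV and 13.1, 5.93 and 8.36 TPM in PBS livers. MCF-10A EV 1, with the highest erythroid markers, was not high in Slc25a37. Slc25a38, the glycine carrier of heme synthesis, was at 14.6, 10.8 and 51.4 TPM in MDA-MB-231 EV, 12.4, 13.9 and 14.5 TPM in MCF-10A EV and 27.2, 12.3 and 17.3 TPM in PBS livers.

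The remaining tested members were low. The pyrimidine nucleotide carriers Slc25a33 and Slc25a36 had means of 11.0 and 1.77 TPM. Slc25a33 was at 13.7, 16.1 and 9.41 TPM in MDA-MB-231 EV, 18.9, 4.22 and 3.57 TPM in MCF-10A EV and 5.45, 22.7 and 4.61 TPM in PBS livers, with MCF-10A EV 1 and PBS 2 high within their groups. Adipocyte markers, 5 genes, held 327 TPM in PBS 2 and 3.94 to 10.5 TPM in the other 8 libraries, and their part in the PBS 2 values was not tested. The uncoupling protein relatives Slc25a14, Slc25a27 and Slc25a30 had means of 1.12, 1.78 and 1.80 TPM. Slc25a34, whose substrate is not firmly known, was at 24.8 TPM in PBS 1 and between 0.62 and 4.64 TPM in the other 8 libraries, the widest spread of the tested members at 40.0-fold. Below the filter, Slc25a35 was at 0.21 to 0.99 TPM, Slc25a53 at 0.04 to 0.89 TPM, Slc25a2 at 0.04 to 0.55 TPM, Slc25a18 at 0.03 to 0.90 TPM and Slc25a43 at 0 to 0.49 TPM. Slc25a54 was listed at 0 in every library.

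Some carrier genes lie close to each other in the genome (RefSeq, GRCm38.p6), at very different levels. On chromosome X Slc25a43 (0.0878 TPM) lies 18290 bases from Slc25a5 (188 TPM) with no gene between them. On chromosome 17 Slc25a41 (0.0278 TPM) lies 2057 bases from Slc25a23 (78.1 TPM), likewise with none between. On chromosome 12 Slc25a29 (2.10 TPM) lies 13957 bases from Slc25a47 (137 TPM), with 1 gene between, and on chromosome 3 Slc25a54 (0 TPM) lies 6567 bases from Slc25a24 (0.682 TPM), also with 1 between. The sources used here do not say whether strand was kept, so reads of genes that overlap on opposite strands could not be told apart. Slc25a5 has near-identical processed copies, and the sources used here do not say how shared reads were counted, so its level is uncertain. The copy named Slc25a5-ps was at most at 0.49 TPM.

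Libraries rather than groups set much of the spread. MDA-MB-231 EV 1 held the highest value of 21 of the 37 tested members (56.8%), where it held the highest of 27.0% of all tested genes. MDA-MB-231 EV 3 was highest for 6 members (16.2%, against 27.3% of all genes), PBS 1 for 3 (8.11%, against 10.7%) and MCF-10A EV 1 for 3 (8.11%, against 18.6%). The median deviation of the members from their own means was 0.62 on the log2(TPM + 1) scale in MDA-MB-231 EV 1, where that of all tested genes was 0.27. The lowest values were most often in MDA-MB-231 EV 2, for 8 members (21.6%, against 24.3% of all genes).

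PBS 1 and MDA-MB-231 EV 3, of different groups, were extreme together for some carriers, as for genes at large. Both were the 2 highest of 9 libraries for Slc25a27, Slc25a28 and Slc25a38, which is 3 of 37 members (8.11%) where 22.1% of all tested genes showed this. Both were the 2 lowest for Slc25a5, Slc25a13, Slc25a20, Slc25a30 and Slc25a39, which is 5 of 37 members (13.5%) against 11.4% of all genes. These shares are a description, and their differences were not tested. Of the 8 hepatocyte markers, 4 (Alb, Ttr, Cyp2e1 and Cps1) had their 2 lowest values in these libraries. Albumin (Alb) was at 13114 TPM in MDA-MB-231 EV 3 and 15893 TPM in PBS 1, against 18814 to 65815 TPM in the other 7. The other 4 (Tat, Apob, Pck1 and Apoa1) did not show this, and Tat was highest of all in MDA-MB-231 EV 3 at 816 TPM. The part of this in the carrier values was not tested.

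**Figure D2:**
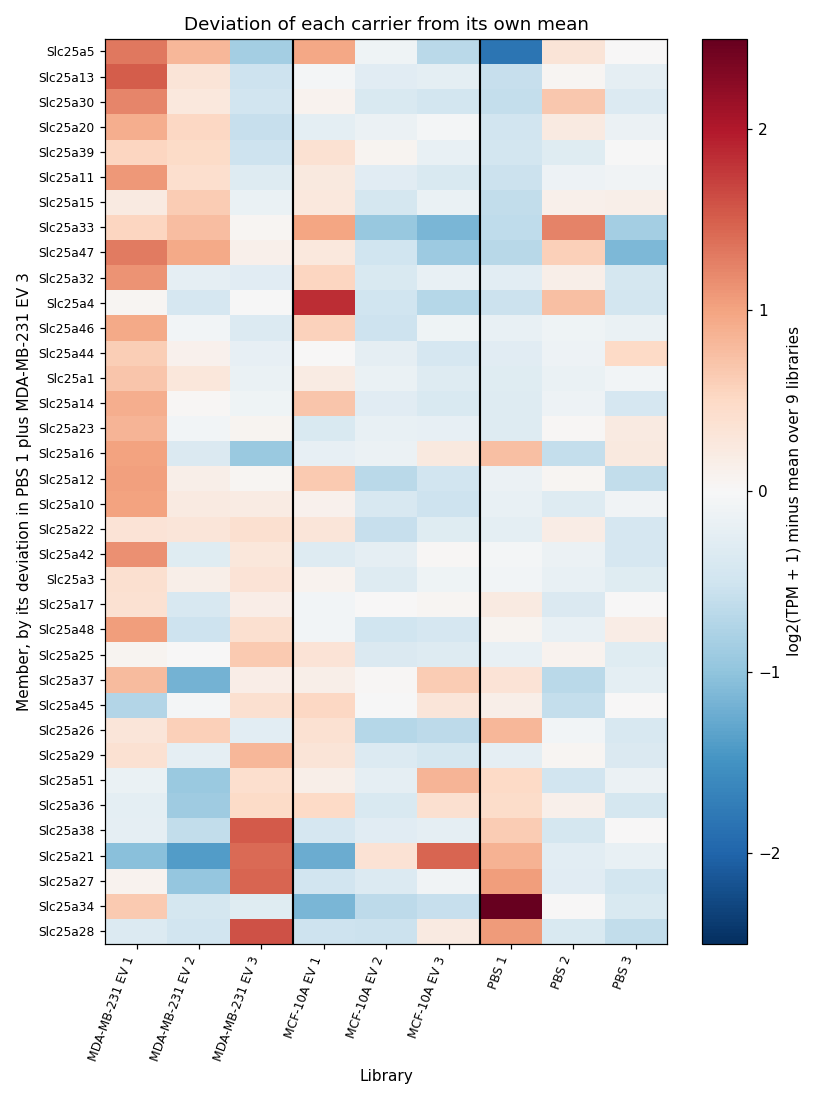
Deviation of 36 of the 37 tested members, each from its own mean over the 9 libraries, log2(TPM + 1) scale, red above and blue below; black lines part the groups. Members are ordered by the sum of their deviations in PBS 1 and MDA-MB-231 EV 3, with Slc25a5 lowest and Slc25a28 highest, and MDA-MB-231 EV 1 is red for most members.

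The sequences before the starts of 4 members are shown because these genes stand at the ends of the patterns above: Slc25a47 and Slc25a10 had the smallest p of the members in both comparisons of MDA-MB-231 EV, and Slc25a5 and Slc25a28 went opposite ways in PBS 1 and MDA-MB-231 EV 3. Each runs 5′ to 3′ from 250 bases before to 50 after a gene start (RefSeq, GRCm38.p6, another build than the authors' GRCm39). Capitals mark matches on either strand to the GC box GGGCGG, the CCAAT box CCAAT, the TATA box TATAAA, the E box CACGTG, GCGCATGC (core of the NRF1 motif), AAGGTCA (a site of estrogen-related receptors) and TGACGTCA (cyclic AMP response element). Slc25a47 lies at chr12:108850879-108851178 (plus strand), Slc25a10 at chr11:120491587-120491886 (plus), Slc25a5 at chrX:36795347-36795646 (plus) and Slc25a28 at chr19:43674832-43675131 (minus).
Slc25a47: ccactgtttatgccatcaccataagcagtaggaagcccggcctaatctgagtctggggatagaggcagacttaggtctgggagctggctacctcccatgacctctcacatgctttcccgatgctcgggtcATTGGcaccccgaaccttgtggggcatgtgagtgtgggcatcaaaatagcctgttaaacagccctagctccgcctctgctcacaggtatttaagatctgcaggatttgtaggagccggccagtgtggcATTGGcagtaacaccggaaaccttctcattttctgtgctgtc
Slc25a10: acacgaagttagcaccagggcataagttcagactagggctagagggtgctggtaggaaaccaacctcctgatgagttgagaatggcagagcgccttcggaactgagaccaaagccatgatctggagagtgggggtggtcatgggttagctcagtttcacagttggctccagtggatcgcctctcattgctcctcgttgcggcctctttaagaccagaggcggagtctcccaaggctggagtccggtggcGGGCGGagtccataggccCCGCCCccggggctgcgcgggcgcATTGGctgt
Slc25a5: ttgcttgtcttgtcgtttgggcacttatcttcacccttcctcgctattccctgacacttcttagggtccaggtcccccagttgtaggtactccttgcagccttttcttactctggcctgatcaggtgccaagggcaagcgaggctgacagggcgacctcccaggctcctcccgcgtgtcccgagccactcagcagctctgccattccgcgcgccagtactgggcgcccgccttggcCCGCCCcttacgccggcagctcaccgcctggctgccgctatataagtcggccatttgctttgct
Slc25a28: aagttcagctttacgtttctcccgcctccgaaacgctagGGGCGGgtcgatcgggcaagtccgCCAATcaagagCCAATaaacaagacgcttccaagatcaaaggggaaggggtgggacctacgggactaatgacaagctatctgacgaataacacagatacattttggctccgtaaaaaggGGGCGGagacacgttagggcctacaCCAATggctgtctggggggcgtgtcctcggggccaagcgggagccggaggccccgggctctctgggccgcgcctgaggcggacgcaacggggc

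Slc25a47 held 2 CCAAT boxes and no GC box in this window, Slc25a10 2 GC boxes and 1 CCAAT box, Slc25a5 1 GC box, and Slc25a28 2 GC boxes and 3 CCAAT boxes. Promoters were found for 36 of the 47 members, 46 windows in all with more than 1 start for some genes. A GC box was in 82.6% of the member windows and in 35.7% of all 32851 windows of this length. A CCAAT box was in 47.8% against 37.4%, a TATA box in 4.35% against 13.6% and an E box in 17.4% against 7.15%. The NRF1 core was in 4.35% against 2.71%, the receptor site in 2.17% against 4.72% and the cyclic AMP element in 4.35% against 1.79%. A match is a description of letters only.

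EVs of cancer cells were set against saline in the MDA-MB-231 EV and PBS livers. Slc25a47 had the smallest p of the family there, at 215 ± 82.2 TPM in MDA-MB-231 EV and 101 ± 67.6 TPM in PBS livers (SD, n = 3 each). Its log2 difference of 1.19 had a 95% interval of -0.02 to 2.41 (SE 0.55) and did not pass the test (limma adjusted p = 1). Slc25a10 followed at 89.2 ± 30.6 and 53.9 ± 4.52 TPM, a log2 difference of 0.67 (interval -0.18 to 1.51). Slc25a11 gave 0.64 ± 0.43 (SE), Slc25a13 0.69 ± 0.50 and Slc25a5 0.93 ± 0.73. Slc25a3 was at 212 ± 19.4 TPM in MDA-MB-231 EV and 152 ± 12.5 TPM in PBS livers, with a log2 difference of 0.48 (interval -0.28 to 1.24). The citrate carrier Slc25a1 gave 0.45 ± 0.37. These values are differences of means of log2(TPM + 1), which understates the change of low genes.

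Of the 37 tested carriers none was called between MDA-MB-231 EV and PBS at a limma adjusted p under 0.05, and none had an unadjusted p under 0.05. The share called among all 12860 tested genes was 0%, with 199 at an unadjusted p under 0.05. The groups did not overlap for 4 members, Slc25a3, Slc25a10, Slc25a14 and Slc25a22, all higher in MDA-MB-231 EV. That is 10.8% of the tested members, against 5.23% of all tested genes not overlapping in this direction and 6.03% in either. Slc25a14 was low and its groups nearly met, at 2.75, 1.05 and 0.87 TPM in MDA-MB-231 EV and 0.60, 0.83 and 0.50 TPM in PBS livers. Its PBS mean of 0.643 TPM lay below the filter of 1 TPM, which it passed only through its EV libraries. Its place among the 4 therefore carries no weight. The log2 difference was above 0 for 30 of 37 members with a median of 0.35, beside 69.7% of all genes and their median of 0.21. At group level, 3 of 3 aspartate and glutamate carriers were above 0 (median 0.65), 3 of 4 carboxylate carriers (0.55), 4 of 4 other amino acid carriers (0.26) and 4 of 7 cofactor carriers (0.09). On the low side stood Slc25a34 at -0.86 ± 0.75, Slc25a21 at -0.49 ± 0.83, Slc25a36 at -0.27 ± 0.49 and Slc25a16 at -0.23 ± 0.54. Quantile normalization moved the median of all genes to 0.04 and gave 23 of 37 members above 0 with a median of 0.13. Leaving mitochondrially encoded genes out of the total moved it to 0.10 and gave 26 of 38, with a median of 0.23.

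These differences leaned on single libraries. Without MDA-MB-231 EV 1 the count became 22 of 36 members above 0 with a median of 0.15, beside 63.4% of all genes and their median of 0.12. Without both PBS 1 and MDA-MB-231 EV 3 the count was 31 of 37 with a median of 0.44, beside 63.8% of all genes and 0.18. Slc25a47 ranged from 0.84 without PBS 3 to 1.70 without PBS 2. Leaving out MDA-MB-231 EV 1 gave Slc25a10 its lowest value, 0.40, and leaving out replicate 3 of that group its highest, 0.80, while Slc25a3 ranged from 0.42 to 0.56. With the same 2 libraries left out in turn, Slc25a13 stood at 0.16 and 1.17, Slc25a11 at 0.29 and 1.00 and Slc25a1 at 0.24 and 0.67. Slc25a5 stood at 0.27 without PBS 1 and at 1.57 without replicate 3 of MDA-MB-231 EV. Slc25a34 turned to 0.15 without PBS 1, Slc25a36 to 0.06 and Slc25a21 to 0.04 without MDA-MB-231 EV 2, and Slc25a16 to 0.19 without MDA-MB-231 EV 3.

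**Figure D3:**
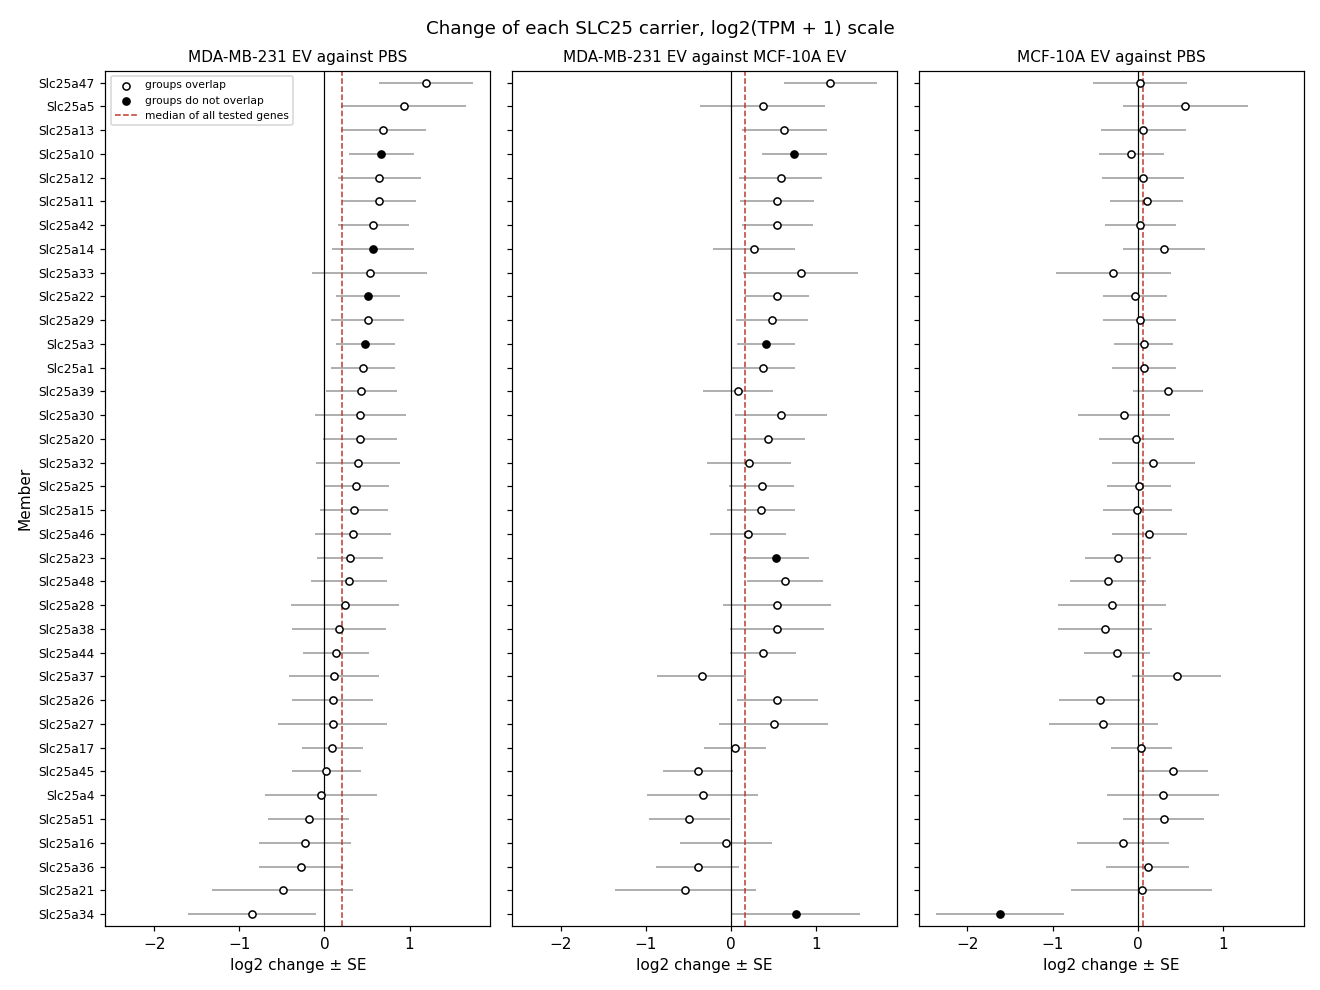
Log2 difference ± SE of 36 of the 37 tested members in the 3 comparisons, ordered by MDA-MB-231 EV against PBS; filled points mark members whose groups do not overlap and the dashed line the median of all tested genes. Most members lie above 0 in both MDA-MB-231 EV comparisons, with medians of 0.35 and 0.41, and no member passed the test.

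The MDA-MB-231 EV livers, the same libraries as above, were next set against MCF-10A EV livers, that is, EVs of cancer cells against those of non-tumorigenic cells. Slc25a47 was at 215 ± 82.2 TPM in MDA-MB-231 EV and 95.5 ± 40.8 TPM in MCF-10A EV livers (SD, n = 3 each), a log2 difference of 1.17 with a 95% interval of -0.05 to 2.38 (limma adjusted p = 1). Slc25a10 was at 89.2 ± 30.6 and 52.1 ± 12.8 TPM, a difference of 0.74 (interval -0.11 to 1.59). Slc25a22 gave 0.54 ± 0.38 (SE), and Slc25a48, a member of unsettled substrate, gave 0.64 ± 0.45 at means of 4.05 and 1.97 TPM. Slc25a23 gave 0.53 ± 0.38 and Slc25a3 0.41 ± 0.34. The lower members were Slc25a51 at -0.49 ± 0.48, Slc25a45 at -0.39 ± 0.41, Slc25a36 at -0.39 ± 0.49 and Slc25a37 at -0.35 ± 0.52. Without MDA-MB-231 EV 2, Slc25a51 stood at -0.13, Slc25a36 at -0.06 and Slc25a37 at 0.21, and without replicate 1 of that group Slc25a45 stood at -0.09 and Slc25a48 at 0.27.

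None of the 37 carriers was called between MDA-MB-231 EV and MCF-10A EV in the limma test, and 0 had an unadjusted p under 0.05. Of all tested genes 0.218% were called, 28 genes, with 492 at an unadjusted p under 0.05. With the replicate number as a block within these 6 libraries, 12 genes were called and no carrier. Slc25a47 had an unadjusted limma p of 0.0134 and an adjusted p of 0.798 in that fit. It was higher in MDA-MB-231 EV in all 3 pairs, as were other members, among them Slc25a1, Slc25a3 and Slc25a10. The share of all genes with this pattern was not counted. The groups did not overlap for Slc25a3, Slc25a10, Slc25a23 and Slc25a34, all higher in MDA-MB-231 EV. These are 10.8% of the members, against 4.73% of all genes in this direction and 6.53% in either. Above 0 were 30 of 37 members, with a median of 0.41, beside 65.0% of all genes and a median of 0.17. Without MDA-MB-231 EV 1 the values were 24 of 36 and 0.16, beside 54.0% of all genes and 0.05, and without PBS 1 and MDA-MB-231 EV 3 they were 27 of 37 and 0.46, beside 55.7% and 0.08. With quantile normalization the median of all genes was -0.002, and 27 of 37 members were above 0 with a median of 0.19. Without MDA-MB-231 EV 1 Slc25a10 stood at 0.48, Slc25a23 at 0.24, Slc25a13 at 0.09 and Slc25a34 at 0.42. The highest value of Slc25a47 was 1.50 without MDA-MB-231 EV 3 and the lowest 0.90 without MCF-10A EV 3.

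MCF-10A EV against PBS asks whether EVs of non-tumorigenic cells differ from saline, and it shares libraries with both comparisons above. The carriers lay near 0 here. Slc25a34 gave the smallest p, with 1.11 ± 0.43 TPM in MCF-10A EV and 9.73 ± 13.1 TPM in PBS livers (SD, n = 3 each), a log2 difference of -1.62 with a 95% interval of -3.28 to 0.05 (limma adjusted p = 1). Its values were 0.62, 1.29 and 1.42 TPM in MCF-10A EV livers 1 to 3 and 24.8, 2.60 and 1.78 TPM in PBS livers 1 to 3, so PBS 1 set the size, and without it the difference was -0.61. Slc25a45 gave 0.41 ± 0.41 (SE), Slc25a37 0.46 ± 0.52, Slc25a39 0.35 ± 0.41 and Slc25a5 0.56 ± 0.73. On the lower side were Slc25a26 at -0.45 ± 0.48, Slc25a48 at -0.35 ± 0.45 and Slc25a38 at -0.38 ± 0.55, and without PBS 1 both Slc25a26 and Slc25a38 stood at -0.09. Without PBS 2 Slc25a45 stood at 0.18 and Slc25a37 at 0.21, and without MCF-10A EV 1 Slc25a39 stood at 0.21. Slc25a47 and Slc25a10, which led the other comparisons, gave 0.03 ± 0.55 and -0.07 ± 0.38. The difference of Slc25a5 was -0.10 without PBS 1 and 0.97 without PBS 2.

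Between MCF-10A EV and PBS none of the 37 carriers was called by limma or had an unadjusted p under 0.05, where 0.194% of all tested genes (25) were called and 411 had an unadjusted p under 0.05. Slc25a34 was the 1 member whose groups did not overlap, lower in MCF-10A EV. It makes up 2.70% of the members, against 4.74% of all genes in this direction, 2.95% in the other and 7.69% in either. Above 0 were 21 of 37 members, with a median of 0.03, beside 56.8% of all genes and a median of 0.07. Leaving mitochondrially encoded genes out of the total gave 11 of 38 members above 0 (28.9%) and a median of -0.07, beside 47.2% of all genes and -0.03. Both medians moved down by a like amount, while the share above 0 fell further for the carriers than for all genes. The count was 9 of 36 with a median of -0.16 without MCF-10A EV 1, beside 38.9% of all genes and -0.09. Without PBS 2 it was 24 of 37 with 0.13, beside 53.0% and 0.04.

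Ratios of related carriers within a library do not depend on its total. They were formed for 9 pairs of relatives with values above 0 in every library. Slc25a5 stood at 85.1, 93.2 and 19.8 times Slc25a4 in MDA-MB-231 EV livers, at 16.8, 52.3 and 42.3 times in MCF-10A EV livers and at 16.2, 24.4 and 53.9 times in PBS livers. The mitoferrin ratio of Slc25a28 to Slc25a37 was 0.836, 3.52 and 5.38 in MDA-MB-231 EV, 1.18, 1.27 and 1.41 in MCF-10A EV and 3.18, 2.49 and 1.47 in PBS livers. All MCF-10A EV ratios lay below all PBS ratios, with a log2 difference of -0.82 (between -1.13 and -0.57 with 1 library left out), while MDA-MB-231 EV spanned both. For Slc25a42 to Slc25a16 the ratio was 1.05, 1.00 and 2.39 in MDA-MB-231 EV, 0.882, 0.904 and 0.816 in MCF-10A EV and 0.535, 1.35 and 0.585 in PBS livers. Here MDA-MB-231 EV lay above MCF-10A EV without overlap (log2 difference 0.65, or 0.24 without MDA-MB-231 EV 3).

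In the other pairs all groups overlapped. Slc25a13 was between 8.83 and 31.7 times Slc25a12, Slc25a47 between 16.9 and 145 times Slc25a48, Slc25a33 between 1.45 and 37.4 times Slc25a36 and Slc25a39 between 115 and 294 times Slc25a40. Slc25a22 over Slc25a18 and Slc25a15 over Slc25a2 varied 44.5-fold and 32.9-fold between libraries, with the lower gene of each pair under 1 TPM. Two-sided exact permutation tests of the log2 ratios gave p = 0.1 for the mitoferrin and the Slc25a42 results, the smallest value 3 against 3 allows. No ratio could therefore pass a threshold of 0.05, and the adjusted p over the 27 tests was 0.853 for both. The groups were apart in 2 of the 27 tests, beside a share of 0.1 for libraries in random order.

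**Figure D4:**
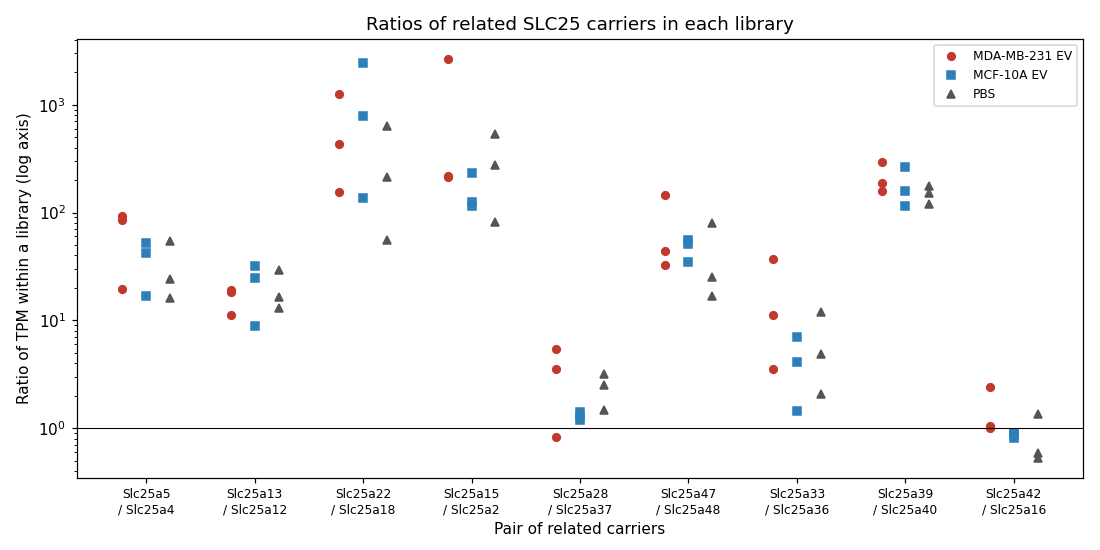
Ratio of the TPM of related carriers in each library (log axis), 9 pairs by group; the line marks a ratio of 1. The mitoferrin ratio lies between 1.18 and 1.41 in MCF-10A EV libraries, below the PBS libraries at 1.47 to 3.18. The groups were apart in 2 of the 27 tests of such ratios.

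Genes around the family were read from fixed lists. Of carriers under other symbols, Ucp2, a relative of the uncoupling protein, was at 52.5, 52.5 and 40.5 TPM in MDA-MB-231 EV, 191, 20.1 and 19.5 TPM in MCF-10A EV and 21.7, 54.7 and 20.3 TPM in PBS livers. Its high value in MCF-10A EV 1 goes with the erythroid markers of that library, and their part in it was not tested. Mtch1 and Mtch2, carrier relatives of the outer membrane, had means of 38.2 and 133 TPM. Ucp1, the uncoupling protein of brown fat, was at 2.17 TPM in PBS 2 and at most at 0.27 TPM in the other 8 libraries, and Ucp3 at most at 0.24 TPM. Of the 3 of these genes that were tested (Ucp2, Mtch1, Mtch2), 2 were above 0 when MDA-MB-231 EV was set against PBS, 2 against MCF-10A EV, and 3 when MCF-10A EV was set against PBS. No gene of the 5 lists was called by limma in any comparison, in either direction. An unadjusted p under 0.05 was reached by 3 of them, Got1 in both comparisons of MDA-MB-231 EV and Pcx and Ppara in the one with MCF-10A EV.

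For the TIM22 pathway, which inserts carriers into the inner membrane, 0 of 13 tested genes were called, and with MDA-MB-231 EV set against PBS 10 of 13 lay above 0 (median 0.37). Tomm70a, the receptor that takes up carrier precursors, gave 0.81 ± 0.51 and Tomm20, another receptor of the outer membrane, 1.47 ± 0.78. Tomm20 was at 60.2, 48.6 and 12.6 TPM in MDA-MB-231 EV and 5.11, 29.1 and 9.56 TPM in PBS livers, with overlap. Of other mitochondrial membrane transporters 16 of 20 were above 0 (median 0.18), and Sfxn1, a serine transporter, had the smallest p of the list, at 0.65 ± 0.43. Enzymes of the malate-aspartate and related shuttles were above 0 in 10 of 10 cases (median 0.58). Among them Got1, the cytosolic aspartate aminotransferase, was at 197, 186 and 379 TPM in MDA-MB-231 EV, against 113, 120 and 105 TPM in PBS livers, without overlap, with a log2 difference of 1.09 ± 0.49 (limma adjusted p = 1). In MCF-10A EV livers Got1 was at 196, 65.4 and 82.5 TPM. MCF-10A EV 1 thus lay above MDA-MB-231 EV 2, and those groups overlapped. Regulators of mitochondrial biogenesis were above 0 in 8 of 8 cases (median 0.50). Beside these lists stand 69.7% of all tested genes above 0 and their median of 0.21. Tfam, the packaging factor of mitochondrial DNA, gave 1.18 ± 0.66, with 35.6, 9.65 and 5.09 TPM in MDA-MB-231 EV and 3.85, 5.04 and 5.90 TPM in PBS livers, so that MDA-MB-231 EV 1 held by far the most. The regulators did not rise in every library. MDA-MB-231 EV 2 lay above all PBS libraries for Tfam alone of the tested regulators. For some it lay below them all, as for Ppara at 11.7 TPM against 13.2 to 35.5 TPM.

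With MDA-MB-231 EV set against MCF-10A EV, 10 of 13 import genes (median 0.20), 13 of 20 other transporters (0.09), 8 of 10 shuttle enzymes (0.32) and 6 of 8 regulators (0.40) were above 0, beside 65.0% of all genes (0.17). Pcx, the pyruvate carboxylase of the matrix, was at 232, 160 and 81.0 TPM in MDA-MB-231 EV, against 76.6, 41.2 and 46.0 TPM in MCF-10A EV livers, without overlap. Its log2 difference of 1.44 ± 0.46 did not pass (limma adjusted p = 0.857). In PBS livers Pcx was at 87.1, 95.7 and 85.6 TPM, above all MCF-10A EV libraries and within the MDA-MB-231 EV range. The nuclear receptor gene Ppara, a regulator of fatty acid oxidation, was at 81.0, 11.7 and 79.2 TPM in MDA-MB-231 EV, against 11.8, 10.9 and 9.06 TPM in MCF-10A EV livers, a difference of 1.92 ± 0.68. MDA-MB-231 EV 2 lay within the MCF-10A EV range. PBS livers held 35.5, 23.1 and 13.2 TPM of Ppara, also above all MCF-10A EV libraries. In MCF-10A EV against PBS the medians were 0.28 for import, 0.16 for other transporters, 0.26 for shuttle enzymes and 0.14 for regulators, with 9 of 13, 13 of 20, 7 of 10 and 4 of 8 above 0, beside 56.8% of all genes and a median of 0.07.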

How the data were processed

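The authors deposited TPM per gene and library from RNA-seq of mouse liver, 9 libraries in all. HISAT2, StringTie and RSEM are named with GRCm39 in the submitters' processing notes, without order of use. Per the labels' protocols, TruSeq kits were used with 1 µg of RNA. TPM was used as deposited, as log2(TPM + 1). The filter, a mean over libraries of 1 TPM or more, kept 12860 Ensembl features, 37 of the 47 members among them; loci assembled from reads were left out. All genes were fitted in R 4.3.3 by limma 3.58.1 on the libraries of every group together, with group means, trended variance, two-sided tests and the Benjamini-Hochberg adjustment per comparison (threshold 0.05). The procedure was checked on simulated data with independent noise of equal size for all genes. Deviations shared within a library, as seen here, were not simulated. Ratios used exact permutation tests (scipy 1.17.1).

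The members, lists and tests were chosen with earlier results of these data known. Named are the 10 members with the highest mean, the 4 higher and 4 lower with the smallest p per comparison, those whose groups do not overlap, the paired relatives, and up to 3 genes per list; further members are named by role or by library pattern, chosen after their values were seen. 1 member is counted among those tested but is not reported here. Alternatives changed the pseudocount, filter, scaling, weights, block and libraries. Correlations over genes were taken between the deviations of libraries from their own group means, on the log2(TPM + 1) scale. For same-numbered libraries of MDA-MB-231 EV and MCF-10A EV they were 0.336, 0.110 and 0.436, so the block is given there as a pairing. Differently numbered libraries of these groups ran from -0.337 to 0.116, and PBS 1 with MDA-MB-231 EV 3 reached 0.625. The labels do not say what a number stands for, so the pairing is uncertain. With PBS, same-numbered libraries did not deviate together throughout (MDA-MB-231 EV -0.284, 0.500 and -0.389, MCF-10A EV -0.206, -0.090 and -0.158).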

Additional observations from a re-analysis of the deposited data

How the results depend on the processing

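In no setting run was an SLC25 member called, with a smallest limma adjusted p of 0.641, 0.374 and 0.104 for MDA-MB-231 EV on PBS, MDA-MB-231 EV on MCF-10A EV and MCF-10A EV on PBS, the order kept here throughout. In every setting the median log2 difference of the members moved by less than 0.26, the within-group SD of the members' median deviation per library. That SD is of 1 library rather than of a difference between groups, and the medians themselves were 0.35, 0.41 and 0.03. Staying within it is therefore a weak check. Over leave-outs of 1 library the median ran from 0.15 to 0.47, 0.16 to 0.49 and -0.16 to 0.13. Of 37 members, 19, 13 and 26 changed sign in at least 1 setting. Of those with a difference over its SE, 14, 16 and 2, this was so for 1, 0 and 0, Slc25a34 in the first comparison. Counts over all genes moved more. In the first comparison 0 genes became 28 without both PBS 1 and MDA-MB-231 EV 3, and 0 to 24 over leave-outs, with 24 without PBS 1 and 5 without MDA-MB-231 EV 3. In the next, 28 genes became 11 with no filter, 17 with a mean of at least 5 TPM, 46 with array weights, 15 with the replicate block over all libraries, 12 with the replicate block within the 6 libraries, 17 with only those 6 and 13 to 31 over leave-outs, with 15, 13 and 17 without MCF-10A EV 2, MCF-10A EV 3 and MDA-MB-231 EV 2. In the last, 25 genes became 40 with a pseudocount of 0.1, 12 with no filter, 548 with array weights, 66 with only 6 libraries, 85 without both libraries and 14 to 59 over leave-outs, with 54, 15, 14 and 59 without PBS 1, PBS 3, MCF-10A EV 3 and MDA-MB-231 EV 3. The cause was not tested. The paired fit changed no carrier call. The replicate block within 6 libraries was chosen after seeing the data, as was leaving each library out of the ratios. TPM keeps no depth, so what depth limits cannot be given.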
